A study of Mus musculus with 14 samples.

Results

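The insulin-like growth factor (IGF) genes measured in the left ventricle of mice with pressure overload are described here: the ligands Igf1 and Igf2, the receptor gene Igf1r, and the binding protein genes Igfbp2, Igfbp3, Igfbp4, Igfbp5, Igfbp6 and Igfbp7. They were chosen by name, as members of one pathway, and they are 9 of the 19937 genes tested. Each gene was read from the single probe set that carries its symbol alone. The 14 arrays came from male mice on a C57BL/6 background, 1 mouse per array, studied 3 weeks after surgery. In the banded mice a ligature had narrowed the ascending aorta (aortic banding, AB), whereas the Sham mice had the same operation without constriction. There were 4 CXCR5-/- AB mice, 3 CXCR5-/- Sham mice, 4 WT AB mice and 3 WT Sham mice. The CXCR5-/- mice lack the chemokine receptor CXCR5 in every tissue, since a neomycin resistance gene took the place of the coding region in embryonic stem cells and the line was then backcrossed. The WT mice came from a commercial C57BL/6 colony, and AB mice of both genotypes entered the study only above a set flow velocity across the band. The age of the mice is not given in the sources used here.

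IGF1 is a growth factor made in the liver and in many tissues, the heart among them, and it acts through the receptor tyrosine kinase IGF1R to drive growth and survival of heart muscle cells through the PI3K, AKT and mTOR cascade. IGF2 is a fetal growth factor that binds the same receptor. The binding proteins IGFBP2 to IGFBP6 hold IGFs with high affinity in blood and matrix and so set how much ligand reaches the receptor, and IGFBP6 prefers IGF2. IGFBP7 binds IGFs weakly and is a secreted protein of vessels and matrix.

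The deposited values are log2 intensities after robust multi-array average (RMA) processing, and a difference of 1 is a doubling. The array medians lay between 5.19 and 5.30. The ventricular muscle list (9 genes, among them Myh6 and Myl2) averaged 12.11 to 12.40 on all arrays, so the labelled tissue showed its defining genes throughout. Myl7, an atrial myosin light chain, stood at 9.68 and 8.82 in CXCR5-/- Sham replicates 1 and 2 and at 9.09 in WT Sham replicate 1, and at 7.49 or below on the other arrays. The probe set for Cxcr5, the targeted gene, read 3.85 to 4.47 on the arrays labelled CXCR5-/- and 3.03 to 3.30 on the WT arrays, so it did not show a loss and cannot check the genotype labels. The genotypes below are therefore those of the labels. Whether the mice of a group were littermates is not stated, and the p-values measure the spread between these mice only.

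In AB hearts of both genotypes, 4 IGF genes stood clearly above Sham: Igf1, Igfbp3, Igfbp6 and Igfbp7. Igfbp4 passed the test in CXCR5-/- mice only and Igfbp5 in WT mice only, with changes of 0.45 to 0.56 on the log2 scale in both genotypes. Igf2 was the single member that was lower, in WT mice. Igf1r and Igfbp2 did not pass in either genotype. In the CXCR5-/- mice 5 of the 9 members passed at an adjusted p under 0.05, all higher, where 14.1% of all genes passed, 8.28% upward and 5.86% downward (limma, Benjamini-Hochberg over all genes). In the WT mice 5 members were higher and 1 was lower, where 9.32% of all genes passed, 5.1% upward and 4.22% downward. Without the 3 Sham arrays that were high in Myl7, 4 members passed in each genotype, Igf1, Igfbp3, Igfbp6 and Igfbp7, where 4.23% of all genes passed in CXCR5-/- and 8.17% in WT mice. This fit leaves CXCR5-/- Sham replicate 3 alone in its group, assumed to vary like the other groups, and 2 WT Sham arrays. The median AB change of the members was 0.52 in CXCR5-/- and 0.52 in WT mice on the log2 scale, against -0.01 and 0.01 over all genes, and that of the 6 binding protein genes was 0.71 in CXCR5-/- and 0.54 in WT mice.

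**Figure D1:**
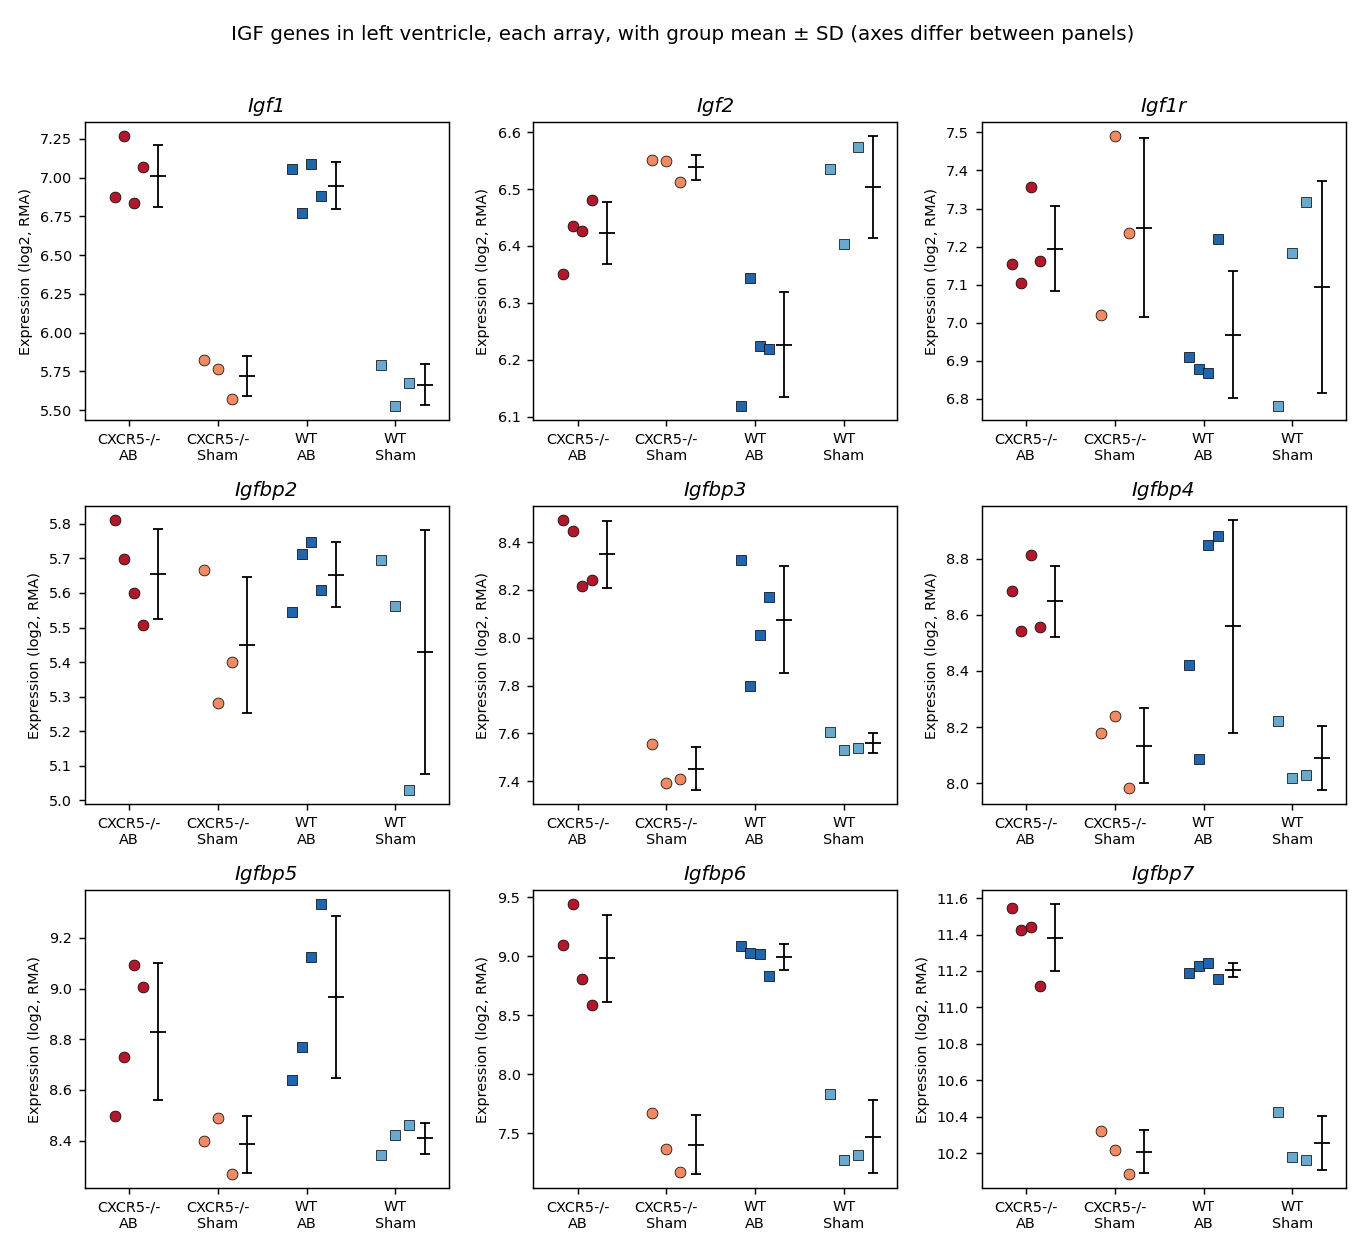
Expression of the 9 IGF genes on each array (log2, RMA; 1 point per mouse) in CXCR5-/- AB, CXCR5-/- Sham, WT AB and WT Sham hearts, with the group mean and SD as a bar to the right of the points. For Igf1, Igfbp3, Igfbp5, Igfbp6 and Igfbp7 every AB array lies above every Sham array, for Igfbp5 narrowly (8.497 against 8.488). For Igf1r and Igfbp2 the groups overlap. Within a genotype, 13.7% of all genes separated upward in CXCR5-/- and 9.39% in WT mice. The share that separates over both genotypes together was not counted.

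Igf1 was the ligand that responded. Its log2 expression was 6.88, 7.27, 6.83 and 7.07 in the CXCR5-/- AB mice, against 5.83, 5.76 and 5.57 in the CXCR5-/- Sham mice. In the WT AB mice it was 7.05, 6.77, 7.09 and 6.88, against 5.79, 5.53 and 5.68 in the WT Sham mice. All AB arrays lay above all Sham arrays, with a gap of 1.01 between the nearest CXCR5-/- arrays and of 0.98 between the nearest WT arrays. Of all genes, 13.7% showed such a separation upward in CXCR5-/- and 9.39% in WT mice. The AB change was 1.29 (SE 0.12, 2.45-fold, limma adjusted p = 1.6e-06) in CXCR5-/- mice and 1.28 (SE 0.12, 2.43-fold, limma adjusted p = 3.42e-06) in WT mice. Ordered by AB change among all 19937 genes, Igf1 took place 92 in CXCR5-/- and place 58 in WT mice.

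Igf2 moved little. It was 6.35, 6.44, 6.43 and 6.48 in the CXCR5-/- AB mice, against 6.55, 6.55 and 6.51 in the CXCR5-/- Sham mice. In the WT AB mice it was 6.12, 6.34, 6.23 and 6.22, against 6.54, 6.40 and 6.57 in the WT Sham mice. The AB arrays lay below the Sham arrays in both genotypes, in WT mice by a gap of 0.06, a pattern that 11.7% of all genes showed in CXCR5-/- and 7.74% in WT mice. The change of -0.28 in WT mice (SE 0.08, limma adjusted p = 0.0449) passed narrowly and no longer passed when any 1 of 12 arrays was left out, that is all but WT AB replicate 2 and CXCR5-/- Sham replicate 1 (adjusted p 0.0528 to 0.186 without the 12). The WT call also ended with estimated array weights, with the WT groups fitted alone, with all probe sets tested and with the atrial list as a covariate (limma adjusted p 0.0573 to 0.14). It ended as well by significance analysis of microarrays, and without the 3 Sham arrays high in Myl7 (change -0.26). In the CXCR5-/- mice the change was -0.11 (SE 0.08, 95% interval -0.29 to 0.06, limma adjusted p = 0.444).

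Igf1r, the gene of the receptor for both ligands, ranged from 7.11 to 7.36 in CXCR5-/- AB and from 7.02 to 7.49 in CXCR5-/- Sham mice, and from 6.87 to 7.22 in WT AB and from 6.78 to 7.32 in WT Sham mice. The 4 ranges overlap. The AB change was -0.05 (95% interval -0.34 to 0.23) in CXCR5-/- and -0.12 (95% interval -0.41 to 0.16) in WT mice, with limma adjusted p = 0.863 and 0.687.

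Igfbp6, the binding protein gene that rose most, was 9.09, 9.44, 8.81 and 8.59 in the CXCR5-/- AB mice, against 7.67, 7.36 and 7.17 in the CXCR5-/- Sham mice. In WT AB mice it was 9.08, 9.03, 9.02 and 8.83, against 7.83, 7.27 and 7.32 in WT Sham mice. The lowest AB array lay above the highest Sham array in both genotypes, in WT mice by 1.01. This was an AB change of 1.58 (SE 0.18, limma adjusted p = 1.14e-05) in CXCR5-/- and 1.52 (SE 0.18, limma adjusted p = 3.46e-05) in WT mice, place 51 and place 35 among all genes. Its spread was wider in CXCR5-/- AB mice (SD 0.37, n = 4) than in WT AB mice (SD 0.11, n = 4). The difference in spread was not tested.

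Igfbp7 was 11.55, 11.42, 11.44 and 11.12 in the CXCR5-/- AB mice, against 10.32, 10.22 and 10.09 in the CXCR5-/- Sham mice. In the WT AB mice it was 11.19, 11.22, 11.24 and 11.16, against 10.43, 10.18 and 10.16 in the WT Sham mice. No AB array came near a Sham array, and the 4 WT AB arrays agreed closely with each other (SD 0.04, n = 4). On the log2 scale AB raised it by 1.17 (SE 0.11, 2.26-fold, limma adjusted p = 1.49e-06) in CXCR5-/- and 0.95 (SE 0.11, 1.93-fold, limma adjusted p = 2.42e-05) in WT mice.

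Igfbp3 encodes the main carrier of IGF1 in blood, where it forms a complex with the acid-labile subunit. It was 8.49, 8.45, 8.21 and 8.24 in the CXCR5-/- AB mice, against 7.56, 7.39 and 7.41 in the CXCR5-/- Sham mice. In the WT AB mice it was 8.32, 7.80, 8.01 and 8.17, against 7.61, 7.53 and 7.54 in the WT Sham mice. The groups did not overlap in either genotype, and the WT gap was the smaller, at 0.19. AB raised Igfbp3 by 0.90 (SE 0.11, 1.86-fold, limma adjusted p = 4.67e-05) in CXCR5-/- and 0.52 (SE 0.11, 1.43-fold, limma adjusted p = 0.00748) in WT mice.

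The calls of Igf1, Igfbp3, Igfbp6 and Igfbp7 were kept under each of 26 alternative fits in both genotypes, leaving out each array among them. Without the 3 Sham arrays that were high in Myl7, the AB change was 1.44 in CXCR5-/- and 1.35 in WT mice for Igf1, and 1.81 in CXCR5-/- and 1.70 in WT mice for Igfbp6. For Igfbp7 it was 1.30 in CXCR5-/- and 1.03 in WT mice, and for Igfbp3 0.94 in CXCR5-/- and 0.54 in WT mice. The remaining CXCR5-/- Sham array, replicate 3, had the lowest Igf1, Igfbp6 and Igfbp7 of its group.

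The sequence before the start of these 4 genes is shown because they moved together, and because their windows differ in composition. Each window holds the 250 bases before the RefSeq start of transcription (GRCm38.p6, 5′ to 3′ on the gene's strand). Capitals mark matches on either strand to any of 5 motifs. The TATA box was searched as TATAAA. The motif of the activator Sp1 was searched as GGGCGG. That of the TEAD family was searched as GGAATG. That of AP-1 was searched as TGANTCA, and the CArG box of serum response factor by its usual definition. The windows are chr10:87860861-87861110 on the plus strand for Igf1, chr11:7213924-7214173 on the minus strand for Igfbp3, chr15:102143936-102144185 on the plus strand for Igfbp6 and chr5:77408046-77408295 on the minus strand for Igfbp7.
Igf1: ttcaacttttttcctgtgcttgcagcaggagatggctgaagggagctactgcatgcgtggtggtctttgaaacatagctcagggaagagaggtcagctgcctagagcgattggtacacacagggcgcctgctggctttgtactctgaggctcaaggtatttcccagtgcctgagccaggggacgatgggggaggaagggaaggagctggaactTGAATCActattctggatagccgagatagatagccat
Igfbp3: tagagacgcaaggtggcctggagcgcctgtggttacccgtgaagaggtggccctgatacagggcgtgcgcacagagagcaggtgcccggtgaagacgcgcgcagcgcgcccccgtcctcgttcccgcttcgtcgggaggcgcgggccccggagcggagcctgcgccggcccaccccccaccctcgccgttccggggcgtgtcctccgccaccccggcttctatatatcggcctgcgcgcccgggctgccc
Igfbp6: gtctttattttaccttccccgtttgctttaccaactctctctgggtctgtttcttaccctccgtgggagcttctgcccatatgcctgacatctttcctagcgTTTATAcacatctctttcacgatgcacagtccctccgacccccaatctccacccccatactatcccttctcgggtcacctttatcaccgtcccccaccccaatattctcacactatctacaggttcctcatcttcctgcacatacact
Igfbp7: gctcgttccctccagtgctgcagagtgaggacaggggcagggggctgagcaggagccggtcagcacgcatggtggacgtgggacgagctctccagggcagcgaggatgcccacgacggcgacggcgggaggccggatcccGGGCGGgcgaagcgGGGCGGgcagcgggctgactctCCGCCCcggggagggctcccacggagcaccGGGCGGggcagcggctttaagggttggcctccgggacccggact

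The GC content was 52.8% for Igf1, 73.2% for Igfbp3, 49.6% for Igfbp6 and 74% for Igfbp7, against a median of 52.4% over 32851 windows of this length. Igf1 held 1 AP-1 match 37 bases before the start, a motif found in 6.75% of all windows. Igfbp7 held 4 Sp1 matches, at 110, 96, 74 and 44 bases before the start, and 32.7% of all windows held at least 1. Igfbp6 held 1 TATA box match 148 bases before the start, on the opposite strand, where 12.4% of windows held one. The Igfbp3 window held no match to the 5 motifs as searched. Variants, such as other TATA-like stretches, were not searched. Over all 13 windows of the 9 genes (Igf2 has 4 starts and Igfbp2 has 2), a TEAD match, found in 12.6% of all windows, lay before Igf2 and Igfbp5 only, and a CArG box, found in 1.47%, before Igf2 only. None of the 5 motifs, as searched, was shared by the 4 genes that rose in both genotypes.

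Igfbp4 was 8.68, 8.54, 8.81 and 8.56 in the CXCR5-/- AB mice, against 8.18, 8.24 and 7.98 in the CXCR5-/- Sham mice. In the WT AB mice it was 8.42, 8.08, 8.85 and 8.88, against 8.22, 8.02 and 8.03 in the WT Sham mice. The CXCR5-/- groups did not overlap, whereas WT AB replicate 2 lay among the WT Sham arrays. Igfbp4 differed between AB and Sham by 0.52 (SE 0.15, limma adjusted p = 0.0314) in CXCR5-/- and 0.47 (SE 0.15, limma adjusted p = 0.0682) in WT mice. In CXCR5-/- mice the call ended without any 1 of 5 arrays, AB replicates 1 and 3 and Sham replicates 1, 2 and 3 (adjusted p 0.0567 to 0.146), and in WT mice it was gained without AB replicate 2 (change 0.63, adjusted p = 0.00521). Without the 3 Sham arrays high in Myl7 the CXCR5-/- call ended as well (change 0.67). It also ended when all probe sets were tested (limma adjusted p = 0.0829). The WT call was also gained with estimated array weights (limma adjusted p = 0.021) and with the atrial list as a covariate (limma adjusted p = 0.0347).

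Igfbp5 was 8.50, 8.73, 9.09 and 9.01 in the CXCR5-/- AB mice, against 8.40, 8.49 and 8.27 in the CXCR5-/- Sham mice. In the WT AB mice it was 8.64, 8.77, 9.13 and 9.33, against 8.34, 8.42 and 8.46 in the WT Sham mice. The AB arrays lay above the Sham arrays in both genotypes, and the lowest CXCR5-/- AB array was close to the highest CXCR5-/- Sham array. The difference between AB and Sham was 0.45 (SE 0.16, limma adjusted p = 0.068) in CXCR5-/- and 0.56 (SE 0.16, limma adjusted p = 0.0307) in WT mice. The WT call ended without any 1 of 5 arrays, AB replicates 3 and 4 and Sham replicates 1, 2 and 3 (adjusted p 0.0699 to 0.0932). It also ended with arrays centred on their medians (limma adjusted p = 0.0544) and when all probe sets were tested (limma adjusted p = 0.0882). In CXCR5-/- mice the call was gained without CXCR5-/- AB replicate 1 (adjusted p = 0.024), WT AB replicate 1 (adjusted p = 0.045) or WT AB replicate 4 (adjusted p = 0.0366). That call was also gained with estimated array weights, with the 2 compared groups fitted alone, with the atrial list as a covariate and by significance analysis of microarrays.

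Igfbp2, which lies next to Igfbp5 on chromosome 1, ranged from 5.51 to 5.81 in CXCR5-/- AB and from 5.28 to 5.67 in CXCR5-/- Sham mice, and from 5.55 to 5.75 in WT AB and from 5.03 to 5.69 in WT Sham mice. All 4 ranges overlap. The AB change was 0.20 (95% interval -0.09 to 0.49, limma adjusted p = 0.397) in CXCR5-/- and 0.22 (95% interval -0.07 to 0.51, limma adjusted p = 0.393) in WT mice. Igfbp3 has Igfbp1 as its neighbour on chromosome 11, and Igfbp1, a binding protein gene of the liver, changed by 0.09 in CXCR5-/- and 0.01 in WT mice (limma adjusted p = 0.845 and 0.986). Neither pair of neighbours therefore showed a call in both genes of the pair.

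**Figure D2:**
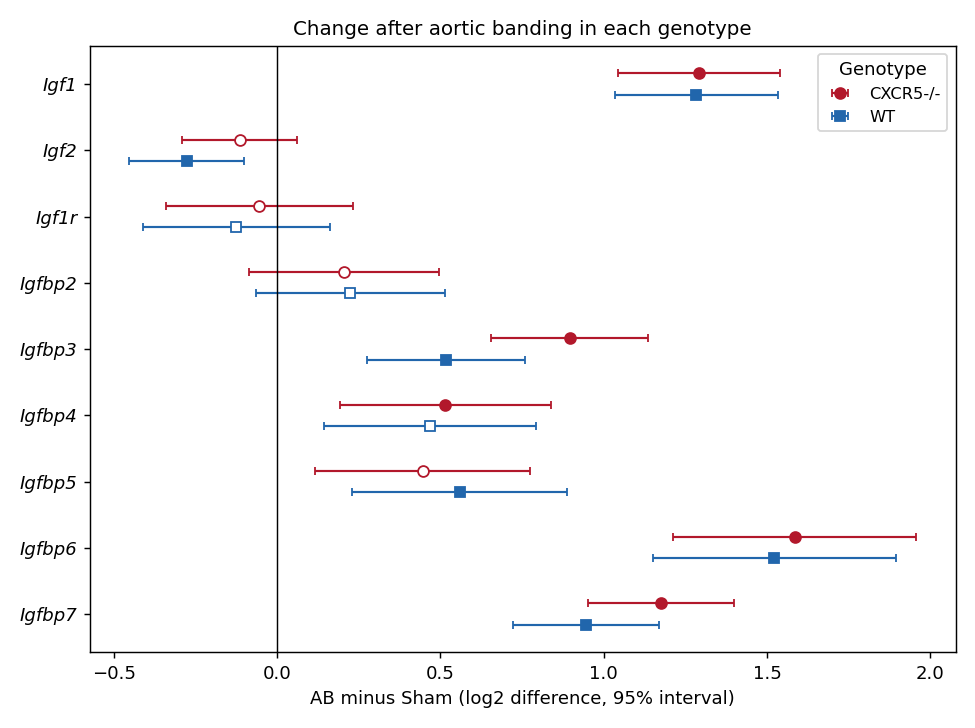
AB minus Sham difference of each IGF gene (log2, point) with its 95% interval (line), CXCR5-/- above WT; filled points passed an adjusted p under 0.05 and open points did not. Igf1, Igfbp6 and Igfbp7 lie furthest to the right in both genotypes, and the Igf1r and Igfbp2 intervals cross 0.

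The mean of both AB responses uses all 14 arrays and narrows the intervals. By this measure 6 members were higher (Igf1, Igfbp3, Igfbp4, Igfbp5, Igfbp6 and Igfbp7) and Igf2 was lower, where 22.8% of all genes passed, 12.3% upward and 10.4% downward. Igfbp4 changed by 0.49 (SE 0.11, limma adjusted p = 0.00279) and Igfbp5 by 0.50 (SE 0.11, limma adjusted p = 0.00264). Igf2 changed by -0.20 (SE 0.06, limma adjusted p = 0.0222), a call that ended without WT Sham replicate 3 (adjusted p = 0.0596), without the 3 Sham arrays high in Myl7 (adjusted p = 0.182) and with the atrial list as a covariate (change -0.18, adjusted p = 0.0512). Igfbp2 changed by 0.21 (SE 0.10, limma adjusted p = 0.136) and passed without WT Sham replicate 1 (change 0.28, adjusted p = 0.0436).

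The second question of the design is whether loss of CXCR5 altered these responses. No member passed in the difference of the AB responses, where 0% of all genes passed (0 of 19937 by limma, and 574 genes, 2.88%, at an unadjusted p under 0.05). For Igf1 the AB response was 0.01 larger in CXCR5-/- than in WT mice, with a 95% interval from -0.34 to 0.36. For Igfbp6 the difference was 0.06 (95% interval -0.46 to 0.59) and for Igfbp7 it was 0.23 (95% interval -0.09 to 0.54). Igfbp3 had the largest difference, 0.38 (SE 0.16, 95% interval 0.04 to 0.72), with an unadjusted p of 0.0314 and an adjusted p of 1 by limma. Its direction was the same under all 24 alternative fits, from 0.29 to 0.46. The other 5 members lay between -0.11 and 0.16.

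After AB, no member passed between CXCR5-/- and WT mice, where 0.0451% of all genes passed. Igfbp3 averaged 8.35 ± 0.14 in CXCR5-/- AB and 8.08 ± 0.22 in WT AB mice (SD, n = 4 each), a difference of 0.27 (SE 0.11, limma unadjusted p = 0.0193, adjusted p = 0.698), and 3 of the 4 WT AB arrays lay below all CXCR5-/- AB arrays. Igf2 averaged 6.42 ± 0.05 in CXCR5-/- AB and 6.23 ± 0.09 in WT AB mice (SD, n = 4 each), a difference of 0.20 (SE 0.08, limma unadjusted p = 0.0206, adjusted p = 0.715). The Igf2 groups did not overlap, by 0.0071, as was the case upward for 1.63% of all genes. Igf1r differed by 0.23 (95% interval -0.04 to 0.49) and Igfbp7 by 0.18 (95% interval -0.03 to 0.39). After Sham surgery no member passed either, where 0.0401% of all genes passed, and the 9 differences lay between -0.11 for Igfbp3 and 0.16 for Igf1r.

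**Figure D3:**
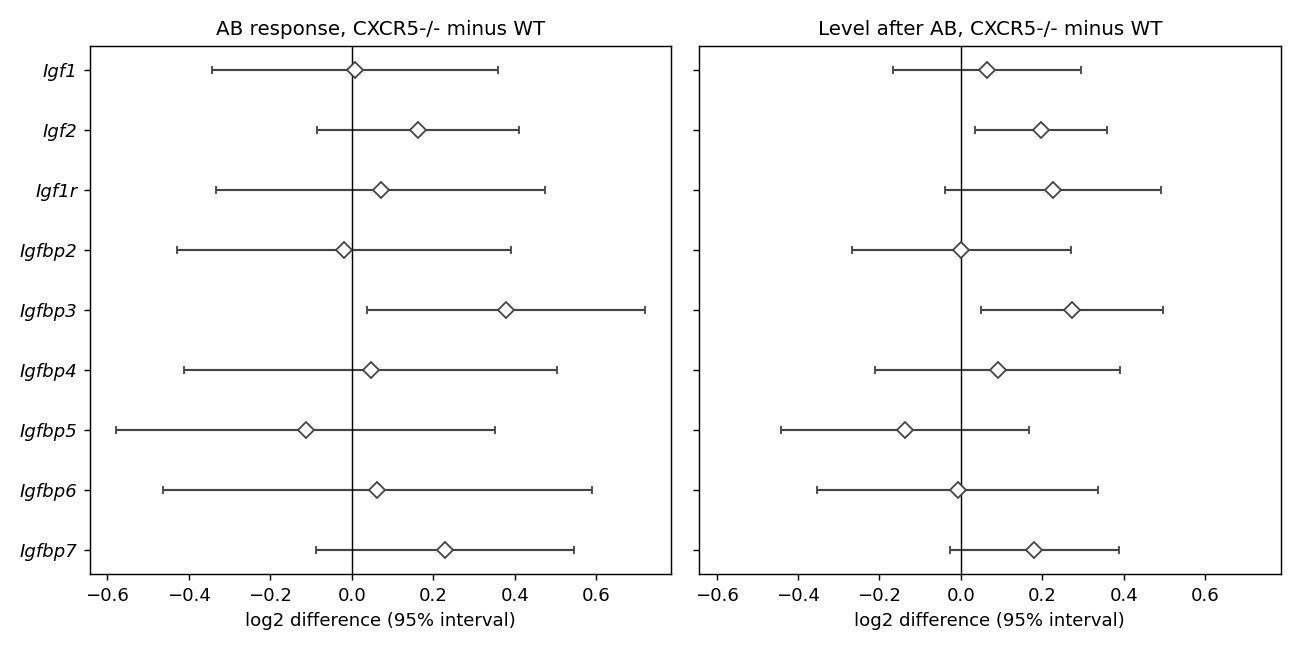
CXCR5-/- minus WT difference of each IGF gene (log2, point) with its 95% interval (line), for the AB response at left and for the level after AB at right. Open points did not pass an adjusted p under 0.05, which holds for all 9 genes in both panels, and the Igfbp3 interval lies above 0 in both before adjustment.

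Ordered by group mean, the AB groups stood above both Sham groups for Igf1, Igfbp2, Igfbp3, Igfbp4, Igfbp5, Igfbp6 and Igfbp7. Between the AB groups, and between the Sham groups, the arrays of all 7 overlapped. Igf2 ran the other way, with both Sham groups above both AB groups. For Igf1r all neighbouring groups overlapped.

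The other genes of the pathway were counted over lists chosen by role. Of 6 other binding and receptor genes, Igfals, which encodes the acid-labile subunit that joins IGF and IGFBP3 in the blood, was lower in CXCR5-/- mice (-0.37, limma adjusted p = 0.0356). It changed by -0.31 in WT mice (limma adjusted p = 0.102), where the call was gained without WT Sham replicate 1 (adjusted p = 0.0325). Its CXCR5-/- call ended without any 1 of 6 arrays, CXCR5-/- AB replicates 2, 3 and 4 and the 3 CXCR5-/- Sham arrays (adjusted p 0.0601 to 0.141), and with the replicate number as a block (adjusted p = 0.0532). The insulin receptor gene Insr, Igf2r (the receptor that clears IGF2), Igfbp1, Igfbpl1 and Insrr did not pass in either genotype, with changes from -0.24 to 0.09. The list median was -0.15 in CXCR5-/- and -0.11 in WT mice, against -0.01 and 0.01 over all genes.

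Among 6 genes of the proteases that cut binding proteins and their inhibitors, Htra1, a secreted serine protease, was lower in CXCR5-/- (-0.38, limma adjusted p = 0.0155) and in WT mice (-0.50, limma adjusted p = 0.00415). Htra1 ranged from 8.08 to 8.35 in CXCR5-/- AB and from 8.48 to 8.71 in CXCR5-/- Sham mice, and from 7.93 to 8.15 in WT AB and from 8.41 to 8.70 in WT Sham mice, with no overlap. The CXCR5-/- call ended without CXCR5-/- AB replicate 2 (adjusted p = 0.0511) or CXCR5-/- Sham replicate 1 (adjusted p = 0.0802). Stc1, whose product stanniocalcin-1 inhibits the protease PAPP-A, was higher in CXCR5-/- mice (0.63, SE 0.17, limma adjusted p = 0.0216) and changed by 0.36 in WT mice (limma adjusted p = 0.254), where it passed with the replicate number as a block (change 0.47, adjusted p = 0.0439). Its CXCR5-/- call ended without any 1 of 4 arrays, CXCR5-/- AB replicates 2 and 3 and CXCR5-/- Sham replicates 2 and 3 (adjusted p 0.0634 to 0.113), and the difference between the genotypes' AB responses was 0.27 (95% interval -0.25 to 0.79). Pappa, Pappa2, Stc2 and Adam12 did not pass. The stanniocalcin gene Stc2, named here after its values were seen, changed by 0.28 in CXCR5-/- mice (limma adjusted p = 0.144) and by -0.20 in WT mice (limma adjusted p = 0.381). The difference of its AB responses was 0.47 (95% interval 0.12 to 0.83, limma unadjusted p = 0.0116, adjusted p = 1), the largest of the list's 6 genes, and after AB it was 0.45 higher in CXCR5-/- than in WT mice (limma unadjusted p = 0.000707, adjusted p = 0.22). The list median was 0.12 in CXCR5-/- and 0.05 in WT mice.

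The growth hormone axis induces Igf1 in the liver through the growth hormone receptor, JAK2 and STAT5. In these hearts 4 of its 6 genes were lower after AB in CXCR5-/- and 2 of 6 in WT mice, with none higher, where 5.86% of all genes were lower in CXCR5-/- and 4.22% in WT mice. The list median was -0.38 in CXCR5-/- and -0.25 in WT mice, against -0.01 and 0.01 over all genes. In the mean AB response 4 of 6 were lower, where 10.4% of all genes were lower. Ghr, the receptor gene, ranged from 9.03 to 9.19 in CXCR5-/- AB and from 9.29 to 9.46 in CXCR5-/- Sham mice, and from 8.85 to 9.03 in WT AB and from 9.37 to 9.52 in WT Sham mice. Its change was -0.28 in CXCR5-/- mice (limma adjusted p = 0.0326) and -0.52 in WT mice (limma adjusted p = 0.000754). The CXCR5-/- call ended without any 1 of 5 arrays, CXCR5-/- AB replicates 1, 3 and 4 and CXCR5-/- Sham replicates 2 and 3 (adjusted p 0.0562 to 0.138). Stat5b changed by -0.50 (limma adjusted p = 0.00371) in CXCR5-/- and by -0.43 (limma adjusted p = 0.0165) in WT mice, the second ending without WT AB replicate 1 (adjusted p = 0.0552), WT Sham replicate 2 (adjusted p = 0.0725) or WT Sham replicate 3 (adjusted p = 0.0783). Stat5a changed by -0.47 (limma adjusted p = 0.00629) in CXCR5-/- and by -0.27 (limma adjusted p = 0.149) in WT mice. Cish, a STAT5 target and feedback inhibitor, changed by -0.49 (limma adjusted p = 0.0318) in CXCR5-/- and by -0.23 (limma adjusted p = 0.406) in WT mice. Its CXCR5-/- call ended without any 1 of 4 arrays, CXCR5-/- AB replicates 2 and 3 and CXCR5-/- Sham replicates 1 and 3 (adjusted p 0.0601 to 0.138). Jak2 and Socs2 changed by 0.15 and 0.16 in CXCR5-/- and by 0.09 and 0.14 in WT mice without passing. The genes that fell were thus Ghr and Stat5b in both genotypes and Stat5a and Cish in CXCR5-/- mice, in hearts where Igf1 itself was higher.

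Below the receptor, 18 of 21 listed signalling genes were measured. None was higher in either genotype. Lower were 5 in CXCR5-/- and 2 in WT mice, where 5.86% of all genes were lower in CXCR5-/- and 4.22% in WT mice. The list median was -0.18 in CXCR5-/- and -0.15 in WT mice, against -0.01 and 0.01 over all genes. In the mean AB response 8 of the 18 were lower and 1, the adaptor gene Shc1, was higher (0.28, limma adjusted p = 0.0264). Of all genes, 10.4% were lower and 12.3% higher by this measure. Among the lower genes, Pik3r1 (-0.48), Foxo3 (-0.36) and Tsc2 (-0.43) passed in neither genotype alone (limma adjusted p = 0.0252, 0.0169 and 0.00732 in the mean AB response). Grb14, an adaptor that inhibits the insulin and IGF1 receptors, ranged from 9.21 to 9.56 in CXCR5-/- AB and from 9.91 to 10.01 in CXCR5-/- Sham mice, and from 9.43 to 9.54 in WT AB and from 9.93 to 10.05 in WT Sham mice. Its change was -0.55 in CXCR5-/- mice (limma adjusted p = 0.000453) and -0.48 in WT mice (limma adjusted p = 0.00228), and both calls were kept under all 26 alternatives. Akt2, a kinase of the insulin and IGF cascade, changed by -0.52 (limma adjusted p = 0.0112) in CXCR5-/- and by -0.49 (limma adjusted p = 0.0243) in WT mice. The CXCR5-/- call of Akt2 ended without CXCR5-/- Sham replicate 2 (adjusted p = 0.0557), and the WT call without WT AB replicates 1 or 2 or WT Sham replicates 2 or 3, 1 at a time (adjusted p 0.0732 to 0.118). Mtor changed by -0.46, Pik3r2 by -0.35 and Akt1 by -0.34 in CXCR5-/- mice (limma adjusted p = 0.0211, 0.0424 and 0.0309), and by -0.31, -0.24 and -0.22 in WT mice (limma adjusted p = 0.158, 0.221 and 0.227). The CXCR5-/- call of Mtor ended without CXCR5-/- AB replicate 2 or CXCR5-/- Sham replicates 2 or 3 (adjusted p 0.0658 to 0.138), and in WT mice Mtor passed without WT Sham replicate 1 (adjusted p = 0.0495). That of Akt1 ended without CXCR5-/- AB replicates 2 or 3 or any 1 CXCR5-/- Sham array (adjusted p 0.0585 to 0.101). That of Pik3r2 ended without any 1 of 9 arrays, all but CXCR5-/- AB replicate 3, WT AB replicates 1, 2 and 4 and WT Sham replicate 1 (adjusted p 0.05 to 0.181). Without the 3 Sham arrays high in Myl7, the CXCR5-/- calls of Igfals, Htra1, Stc1, Ghr, Stat5b, Stat5a, Cish, Akt2, Mtor, Akt1 and Pik3r2 all ended (adjusted p 0.0814 to 0.434), and Mtor passed in WT mice (adjusted p = 0.0455). With the atrial list as a covariate, the CXCR5-/- calls of Akt1, Pik3r2, Ghr and Stc1 ended (limma adjusted p 0.0659 to 0.127). Testing all probe sets ended those of Igfals, Stc1, Ghr, Cish, Mtor, Akt1 and Pik3r2, and the WT call of Akt2. Fitting the 2 compared groups alone ended the CXCR5-/- call of Ghr and the WT call of Akt2. Significance analysis of microarrays also ended the latter. Estimated array weights gained the WT calls of Igfals and Mtor. No gene of these lists passed in the difference of the AB responses, so that passing in 1 genotype does not show a difference between them.

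**Figure D4:**
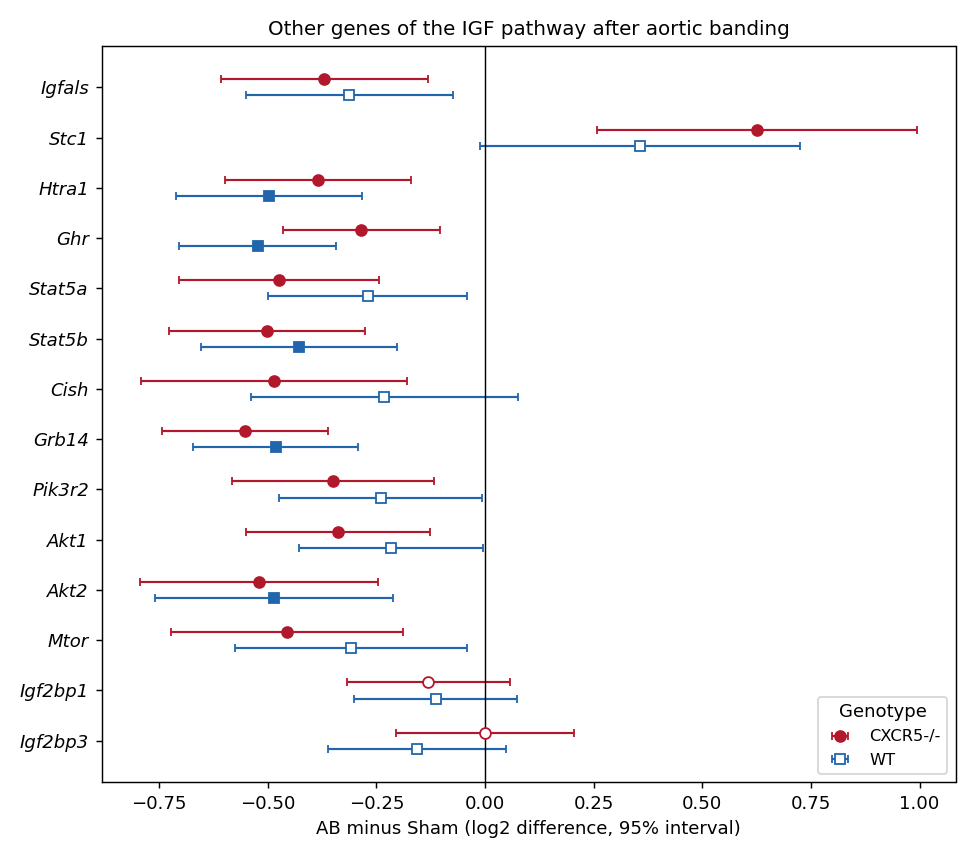
AB minus Sham difference (log2, point) with its 95% interval (line) for 14 other pathway genes, CXCR5-/- above WT. They are those of each list that passed in either genotype, or had the smallest p where none passed. Filled points passed an adjusted p under 0.05. Of these 14, Stc1 alone lies to the right of 0 in both genotypes, with a WT interval of -0.01 to 0.73. Htra1, Ghr, Stat5b, Grb14 and Akt2 are filled and to the left in both.

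Around Igf2, the neighbouring insulin gene Ins2 and the mRNA binding protein genes Igf2bp1 and Igf2bp3 were measured, and none passed. Igf2bp1 changed by -0.13 in CXCR5-/- and -0.11 in WT mice, and Igf2bp3 by 0.0005 in CXCR5-/- and -0.16 in WT mice. Both stood at 3.98 to 4.65 on the 14 arrays, below the array medians.

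Whole ventricle holds many cell types, and more cells of a type cannot be told apart from more RNA per cell. The fibroblast list (9 genes, among them Col1a1, Dcn, Pdgfra and Tcf21) moved with the IGF genes. After AB 8 of 9 rose in CXCR5-/- and 5 of 9 in WT mice, where 8.28% and 5.1% of all genes rose. The list mean was 9.23 to 9.50 in CXCR5-/- AB and 8.31 to 8.60 in CXCR5-/- Sham mice, and 8.99 to 9.54 in WT AB and 8.36 to 8.54 in WT Sham mice. The list median change was 0.69 in CXCR5-/- and 0.53 in WT mice, beside 1.29 and 1.28 for Igf1, 1.58 and 1.52 for Igfbp6 and 1.17 and 0.95 for Igfbp7. WT AB replicate 4, with the highest list mean of its group, 9.54, had the highest Igfbp4 (8.88) and Igfbp5 (9.33) and the lowest Igfbp6 (8.83) and Igfbp7 (11.16) of the WT AB mice. The other groups did not repeat this for Igfbp6 and Igfbp7. WT Sham replicate 1, highest of its group at 8.54, had the highest Igfbp6 (7.83) and Igfbp7 (10.43) of the WT Sham mice. CXCR5-/- AB replicate 3 (9.50) and CXCR5-/- Sham replicate 2 (8.60), highest in their groups, had neither the highest nor the lowest of either gene. The part of the fibroblast list in the IGF changes was not tested.

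**Figure D5:**
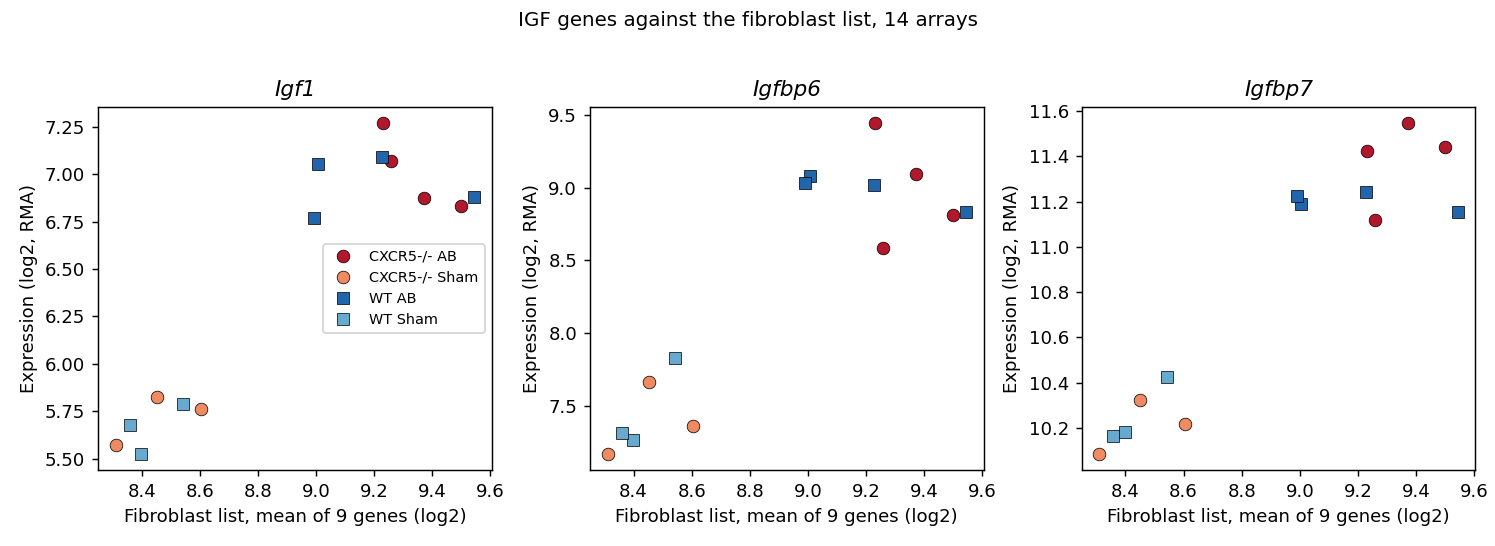
Expression of Igf1, Igfbp6 and Igfbp7 (log2, vertical) against the mean of the 9 fibroblast list genes (log2, horizontal), 1 point per array, in CXCR5-/- AB, CXCR5-/- Sham, WT AB and WT Sham hearts. AB and Sham arrays form separate clouds on both axes, with list means of 8.99 to 9.54 and of 8.31 to 8.60.

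Of the macrophage list (7 genes), 4 rose in CXCR5-/- and 3 in WT mice. Its mean was 7.78 to 8.11 in CXCR5-/- AB and 7.32 to 7.44 in CXCR5-/- Sham mice, and 7.73 to 7.89 in WT AB and 7.48 to 7.58 in WT Sham mice. Of the ventricular muscle list, 4 of 9 genes fell in CXCR5-/- and 2 in WT mice, with a mean of 12.11 to 12.23 in CXCR5-/- AB and 12.38 to 12.40 in CXCR5-/- Sham mice, and 12.16 to 12.23 in WT AB and 12.39 to 12.40 in WT Sham mice. In the endothelial list 1 of 6 genes rose in each genotype, and in the mural cell list 2 of 8 rose and 1 fell in CXCR5-/- and 1 fell in WT mice. Of all genes, 8.28% passed upward and 5.86% downward in CXCR5-/-, and 5.1% upward and 4.22% downward in WT mice. The counts of these short lists were not tested against those shares. No gene of the mesothelial (6 genes, median change 0.40 in CXCR5-/- and 0.53 in WT mice), atrial, adipocyte or liver lists or the 1 measured blood gene passed in either genotype alone. In the mean AB response, however, 5 of the 6 mesothelial genes were higher, with a list median of 0.49. That response also calls more of all genes, 12.3% higher and 10.4% lower, and the list counts were not tested against these shares. By that measure 8 of 9 fibroblast genes and 1 of 4 adipocyte genes were higher, 5 of 7 macrophage genes were higher and 1 lower, 4 of 8 mural genes were higher and 2 lower, 1 of 6 endothelial genes was higher and 1 lower, and 5 of 9 ventricular genes were lower. The liver list varied between single mice, from 4.75 to 8.11 in CXCR5-/- AB, 4.73 to 4.94 in CXCR5-/- Sham, 5.08 to 6.53 in WT AB and 4.71 to 7.61 in WT Sham mice. The part of these cell types in the IGF changes was not tested.

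The genes whose pattern was most like each member were ranked by Pearson's r of log2 values over the 14 arrays, which is a description since AB and Sham arrays form clusters that all responsive genes share. Igf1 was nearest to Cfl1 (r = 0.99, and 0.88 with group means removed), which encodes the actin-binding protein cofilin-1, then to Shisa4 and Ccdc80. Igfbp7 was nearest to Ctsk (0.99, and 0.79 with group means removed), the gene of the collagen-degrading protease cathepsin K, then to Lbp and Tmem45a. Igfbp6 was nearest to Cd9 (0.98, and 0.84 with group means removed), a tetraspanin gene, then to Lxn and Atf5. Igfbp3 was nearest to Il17ra (0.97, and 0.83 with group means removed), the gene of an IL-17 receptor chain, then to the Wnt antagonist gene Sfrp1 and to Sprr1a. All of these genes passed upward after AB in both genotypes.

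Igfbp4 was nearest to the cytoskeletal actin gene Actb (0.95, and 0.95 with group means removed), Bace2 and Prkcd, and Igfbp5 to Camk1d (0.93, and 0.85 with group means removed), Elf4 and Pml. Igf2 was nearest to Tfpi (0.93, and 0.69 with group means removed), an inhibitor of coagulation, then to Nudt4 and Rad21. Igf1r was nearest to Heg1, Ago3 and Cped1 and Igfbp2 to Trpv1, Polr2k and Col27a1, with r between 0.89 and 0.95, and none of these 6 genes passed after AB in either genotype.

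Among the members themselves, the deviations of single mice from their group means were followed from gene to gene. Igfbp6 and Igfbp7 deviated together (r = 0.78 over the 14 arrays, group means removed), as did Igfbp2 and Igfbp7 (0.65) and Igfbp4 and Igfbp5 (0.63). Igf1 and Igfbp6 were at 0.59, and Igf1 and Igfbp7 at 0.12. Igf1r ran against Igfbp2 (-0.72) and Igfbp6 (-0.63), and Igf2 against Igfbp3 (-0.65). CXCR5-/- AB replicate 4 had the lowest Igfbp6 (8.59) and Igfbp7 (11.12) of the AB mice, and CXCR5-/- Sham replicate 3 the lowest of both (7.17 and 10.09) of all mice. Deviations of this kind share the array's normalization and the tissue sample, and they are given without a test.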

How the data were processed

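Total RNA from the left ventricle of 14 mice was hybridised to Affymetrix mouse ST 1.0 arrays. The deposited values are log2 intensities that the authors produced by robust multi-array average (RMA); the build is not given in the sources used here. RMA fits all arrays together, so that values compare between arrays but not between probe sets. The labels and the methods name different RNA kits. Of 34760 probe sets, 21640 carry 1 gene symbol, 1321 several and 11799 were unnamed here, and 21553 matched a RefSeq gene by Entrez ID. The probe set with the highest mean represented each of 19937 genes (954 had several). Limma 3.58.1 (R 4.3.3) fitted 4 group means with 10 residual and 7.13 prior degrees of freedom, and 6 contrasts were adjusted by Benjamini-Hochberg over all genes at 0.05. The methods name significance analysis of microarrays without settings, which was run as an alternative (35 permutations per contrast). The fit was tested on simulated data.

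The members, pathway lists, cell type lists and motifs were chosen with earlier results of these data known. The text names all 9 members, Cxcr5, the genes of each pathway list that passed in either AB comparison (up to 6 with the smallest p, or the 2 with the smallest p where none passed), and the 3 genes most like each member, with predicted genes passed over. Beyond this rule it names Shc1, Pik3r1, Foxo3 and Tsc2, which passed in the mean AB response alone, and Stc2, named after its values were seen. Some other list genes are named as not passing. Promoter windows came from RefSeq (GRCm38.p6), where all 9 members matched. What a replicate number marks is not stated. Arrays of the same number in CXCR5-/- AB and WT AB mice deviated together weakly (r = 0.13 to 0.22), and 1 of 4 was nearest to its own number. For CXCR5-/- Sham and WT Sham mice r was 0.03 to 0.45, with 2 of 3 nearest to their own number. Within a genotype, r between AB and Sham arrays ran from -0.11 to 0.13 in CXCR5-/- and from -0.06 to 0.26 in WT mice. A pairing is therefore not shown. The main fit used none, and the replicate number entered as a block in an alternative fit only.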

Additional observations from a re-analysis of the deposited data

Results flagged for a closer look

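In 6 of 46 groups of 4 arrays, a single array stood apart from its group by Dixon's criterion, which chance gives in about 1 of 20 groups. Igf1r was 7.22 in WT AB replicate 4, and 6.87 to 6.91 in the other WT AB mice. Igfals was 5.51 in CXCR5-/- AB replicate 1, and 5.12 to 5.16 in the others of its group. Stat5b was 7.13 in CXCR5-/- AB replicate 2, and 7.32 to 7.34 in the others. Cish was 8.32 in WT AB replicate 3, and 7.92 to 7.97 in the others. Grb14 was 9.43 in WT AB replicate 4, and 9.53 to 9.54 in the others. Igf2bp1 was 4.17 in CXCR5-/- AB replicate 3, and 3.98 to 4.01 in the others. No AB array stood apart for Igf1, Igf2 or a binding protein gene among the 9 members. The Sham groups, with 3 arrays each, were not checked in this way.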

How the results depend on the processing

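Each count of members passed was recomputed under 24 to 26 alternatives. It ranged from 4 to 6 in CXCR5-/- mice (5 with all arrays) and from 4 to 7 in WT mice (6 with all arrays) for AB against Sham, from 6 to 8 for the mean AB response, and it stayed at 0 in the 3 comparisons of genotypes. The lowest counts of 4 came, outside leaving out single arrays, when all probe sets were tested and without the 3 Sham arrays high in Myl7, a fit with 1 CXCR5-/- Sham array. With the replicate number as a block the counts were 5 in CXCR5-/- and 6 in WT mice, and of the genes named this block ended the call of Igfals in CXCR5-/- mice and gained that of Stc1 in WT mice (0.47, adjusted p = 0.0439), with no other call changed. Significance analysis of microarrays called 6 members in CXCR5-/- and 5 in WT mice, where it called 19.6% of all genes in CXCR5-/- and 9.15% in WT mice. Of 468 single values of members after AB, 424 kept direction and side of the threshold, 33 lost and 10 gained the threshold, and 1 changed sign: Igf1r in CXCR5-/- mice, which became 0.067 without CXCR5-/- Sham replicate 2 and ranged down to -0.17 without other single arrays. The AB change of Igf2bp3 in CXCR5-/- mice, near 0, became -0.016 with arrays centred on their medians and -0.031 with the atrial list as a covariate, and ranged from -0.055 to 0.091 when single arrays were left out. For Igf1 the difference of the AB responses became -0.018 with estimated array weights and ranged from -0.078 to 0.077 when single arrays were left out, and that of Igfbp6 ranged from -0.12 to 0.20. In the genotype comparisons, 446 values belonged to results given above only by a range or its ends, or not given. Of these, 49 changed sign, none passed, and all lay between -0.25 and 0.27. The cause of these changes was not tested. The number of arrays limits the precision: with 3 or 4 mice per group the SE of a member's AB change was 0.08 to 0.18.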
